A study of Mus musculus with 11 samples.

Results

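Transcripts of 10 genes known from endothelial cells (Cldn5, Pecam1, Cdh5, Kdr, Tek, Tie1, Flt1, Esam, Ly6c1 and Slco1a4) were followed in RNA of mouse microglia, the resident macrophages of the brain. Cldn5 was selected on its large fall from sorted to cultured newborn microglia in these same arrays. Its values are therefore descriptions, given with no test, and it is left out of all counts. The other 9 genes were listed beside it for their place in endothelial cells, to ask whether they shared that fall. A probe was matched for 9 of the 10 genes, Esam having none, out of 23329 genes with a matched probe. All 9 passed the filter on dim probes and were among the 19555 genes tested, which leaves 8 genes beside Cldn5.

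RNA was measured on 11 one-colour arrays of 4 groups of C57BL/6N cells, with no genetic change in any of them. A_FACS (2 arrays) was microglia of adult female mice and NB_FACS (3 arrays) microglia of mice killed in the first days after birth, both sorted by flow cytometry on intermediate CD45 and high CX3CR1 and lysed without culture. NB_Control (3 arrays) was microglia shaken off mixed glial flasks, which had been started from pooled newborn brains and kept for weeks with L-929 conditioned medium, and then held for 1 day in DMEM/F12 with serum. NB_Stim (3 arrays) was the same with human TGF-β1, IL-34 and CX3CL1 added at 100 ng/mL each. The time in culture and the way of isolation thus changed together between NB_FACS and both cultured groups, and they cannot be told apart. Age and sex cannot be told apart between A_FACS and NB_FACS. No endothelial antibody was used in the sort, and of the animals only the adults are described as perfused. In bulk RNA, fewer cells of a type and less RNA per cell cannot be told apart either.

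Values are quantile normalised log2 signal intensities, so that a difference of 1 is a 2-fold ratio, and levels of different genes are not set against each other because their probes differ. The scanner software flagged 66.8% to 80.5% of the 60037 probes per array as well above background. Replicate 3 of each newborn group lay on slide 2 and the other 8 arrays on slide 1. Replicates 1 and 2 of each cultured group were closer to each other (SD of their log2 differences over genes 0.262 in NB_Control and 0.294 in NB_Stim) than the other pairs within a group (0.395 to 0.701), and whether they share a culture is not stated in the labels. Precision is limited by how few arrays there are. Differences were tested with limma across the 19555 genes, p-values were adjusted after Benjamini-Hochberg, and "called" means an adjusted p below 0.05. Of 11 microglial genes tested, the first 2 listed were bright in the sorted groups, namely Tmem119 (14.04 in NB_FACS, 16.22 in A_FACS, group means) and P2ry12 (12.95 and 14.17). Not all were: Csf1r was 6.62 and 9.17, and Gpr34 was 3.08 and 3.64. Gpr34 was well above background on 0 of 3 NB_FACS arrays.

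Endothelial cells line the blood vessels. In the brain they are sealed by tight junctions, of which claudin-5 (Cldn5) is the main strand protein, while VE-cadherin (Cdh5), PECAM-1 (Pecam1) and ESAM sit at the contacts between the cells. They carry the receptors for vascular endothelial growth factor, VEGFR-2 (Kdr) and VEGFR-1 (Flt1), and the angiopoietin receptor TIE2 (Tek) with its partner TIE1. Ly6c1 encodes a surface protein of brain endothelium and of some leukocytes, and Slco1a4 an organic anion transporter of the blood-brain barrier. PECAM-1 and VEGFR-1 are also known from monocytes and macrophages, so these genes are not all equally specific for vessels.

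Each value rests on 1 to 3 short probes. The following belong to genes whose signal nearly vanished in culture (Cldn5, Tek) and to genes whose signal did not (Cdh5, Kdr). Those of Flt1 are shown because its 2 probes differed, and those of Ly6c1 and Ly6c2 because the genes are near copies. They are written 5′ to 3′ as the scanner files give them. The longest run that the Ly6c1 probe shown shares with the Ly6c2 probe is in capitals.
Cldn5: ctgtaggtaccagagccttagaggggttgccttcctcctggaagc
Tek: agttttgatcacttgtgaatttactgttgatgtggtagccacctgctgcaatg
Cdh5: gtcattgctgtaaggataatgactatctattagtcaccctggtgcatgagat
Kdr: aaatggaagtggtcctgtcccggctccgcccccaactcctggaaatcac
Flt1 probe 1: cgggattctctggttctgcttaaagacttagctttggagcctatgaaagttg
Flt1 probe 2: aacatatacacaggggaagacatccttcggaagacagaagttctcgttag
Ly6c1 probe 2: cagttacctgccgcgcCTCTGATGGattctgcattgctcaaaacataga
Ly6c2: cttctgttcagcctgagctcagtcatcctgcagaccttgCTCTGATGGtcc
The share of G or C was 57.8% in the Cldn5 probe and 41.5% in the Tek probe. It was 59.2% in the Kdr probe and 40.4% in the Cdh5 probe. Whether properties of the probes play a part in the contrast was not tested. The run in capitals is 9 bases long, and the other 3 Ly6c1 probes share at most 5 bases in a row with the Ly6c2 probe. Only probes were compared with each other, which cannot show whether a Ly6c1 probe also binds Ly6c2 transcripts.

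Promoters are given for Cldn5 and Tek, which moved together over the arrays, and for Kdr, which did not move with them. The windows run from 250 bases before to 50 after the start of the gene in RefSeq (build GRCm38.p6), where 7 of the 10 genes had one. They were searched on both strands for CAGGAA and CCGGAA, core sequences that many ETS factors bind, and for AACAAT, a core of SOX factor sites, and matches are in capitals. The Cldn5 window is chr16:18776597-18776896 (plus strand), the Tek window chr4:94739039-94739338 (plus strand) and the Kdr window chr5:75978406-75978705 (minus strand).
Cldn5: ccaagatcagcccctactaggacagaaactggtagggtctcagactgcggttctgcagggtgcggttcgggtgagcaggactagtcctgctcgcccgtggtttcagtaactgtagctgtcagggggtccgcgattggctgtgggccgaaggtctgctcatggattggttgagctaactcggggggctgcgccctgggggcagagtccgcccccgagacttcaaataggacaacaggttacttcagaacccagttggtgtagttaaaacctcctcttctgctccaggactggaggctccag
Tek: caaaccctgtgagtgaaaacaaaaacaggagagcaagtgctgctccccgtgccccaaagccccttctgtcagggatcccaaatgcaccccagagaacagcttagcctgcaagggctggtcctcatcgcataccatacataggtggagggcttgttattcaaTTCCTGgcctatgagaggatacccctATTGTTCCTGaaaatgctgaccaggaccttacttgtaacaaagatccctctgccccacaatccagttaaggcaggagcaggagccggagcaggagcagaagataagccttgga
Kdr: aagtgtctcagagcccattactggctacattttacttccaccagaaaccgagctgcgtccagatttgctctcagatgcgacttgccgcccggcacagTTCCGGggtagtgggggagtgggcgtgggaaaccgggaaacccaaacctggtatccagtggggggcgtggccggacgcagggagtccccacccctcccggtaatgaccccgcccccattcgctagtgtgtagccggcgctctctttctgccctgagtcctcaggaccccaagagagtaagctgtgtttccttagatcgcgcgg
The Cldn5 window held 0 of the 3 motifs. The Tek window held CAGGAA at 2 places and AACAAT at 1, with 1 of the CAGGAA matches overlapping the AACAAT match. The Kdr window held CCGGAA at 1 place. Among all 32851 promoter windows, 30.6% held CAGGAA, 14.9% CCGGAA and 10.7% AACAAT, and 48% held at least 1 of them. These letters are thus common, and a match is a description only.

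Among the junction genes, Cldn5 and Pecam1 were lower in culture, while Cdh5 was not called. Cldn5 was 11.89 and 13.04 on the A_FACS arrays and 12.27, 11.71 and 11.99 on the NB_FACS arrays. It was 4.72, 5.07 and 4.54 in NB_Control and 4.60, 3.38 and 4.38 in NB_Stim, of which the array at 3.38 was not well above background. The sorted and the cultured arrays were separated by more than 6 log2 units with no overlap, which is the pattern it was chosen for. Its group means differed by -7.22 between NB_Control and NB_FACS (-7.10 within slide 1 and -7.46 within slide 2) and by -7.87 between NB_Stim and NB_FACS. With normexp background correction they differed by -5.47 and -5.63. Cldn5 in NB_Stim overlapped NB_Control, and A_FACS overlapped NB_FACS.

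Pecam1, an adhesion molecule of endothelial junctions, platelets and leukocytes, was 7.61 and 7.44 in A_FACS and 6.95, 6.80 and 6.76 in NB_FACS. In NB_Control it was 5.44, 5.58 and 3.27, and in NB_Stim 4.69, 4.47 and 3.53. Every cultured array was below every sorted array, and the slide 2 array was the lowest in both cultured groups. The log2 difference from NB_FACS was -2.08 (SE 0.54, n = 3 each, adjusted p = 0.0163 in limma) for NB_Control and -2.61 (SE 0.54, adjusted p = 0.00493) for NB_Stim, where the 2 probes fell by 1.55 and 3.67 and the second was well above background on 1 of 3 arrays. Within slide 1 the first was -1.37 and within slide 2 it was -3.50. The 2 Pecam1 probes fell unequally, by 1.14 and by 3.01 on the log2 scale in NB_Control, and the second was not well above background on the NB_Control array of slide 2. The NB_Control call was lost with Tukey's test (adjusted p = 0.182) and without NB_FACS replicate 1 (adjusted p = 0.0511), the range over its alternatives being 0.000618 to 0.182.

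Cdh5, the adhesion protein that defines adherens junctions between endothelial cells, stayed well above background on all 11 arrays. It was 8.24 and 9.19 in A_FACS, 8.54, 8.50 and 9.11 in NB_FACS, 8.49, 8.54 and 7.50 in NB_Control and 8.14, 8.41 and 7.52 in NB_Stim. NB_Control overlapped NB_FACS, and the low values of both cultured groups were on slide 2. The difference between NB_Control and NB_FACS was -0.54 (95% interval -1.36 to 0.28, adjusted p = 0.317 in limma), and that between NB_Stim and NB_FACS was -0.69 (-1.51 to 0.12, adjusted p = 0.186). Within slide 1 the first difference was -0.004, against -1.61 within slide 2, so that a clear difference was seen on slide 2 alone, from single arrays. Both intervals lie far from the -7.22 and -7.87 of Cldn5.

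**Figure D1:**
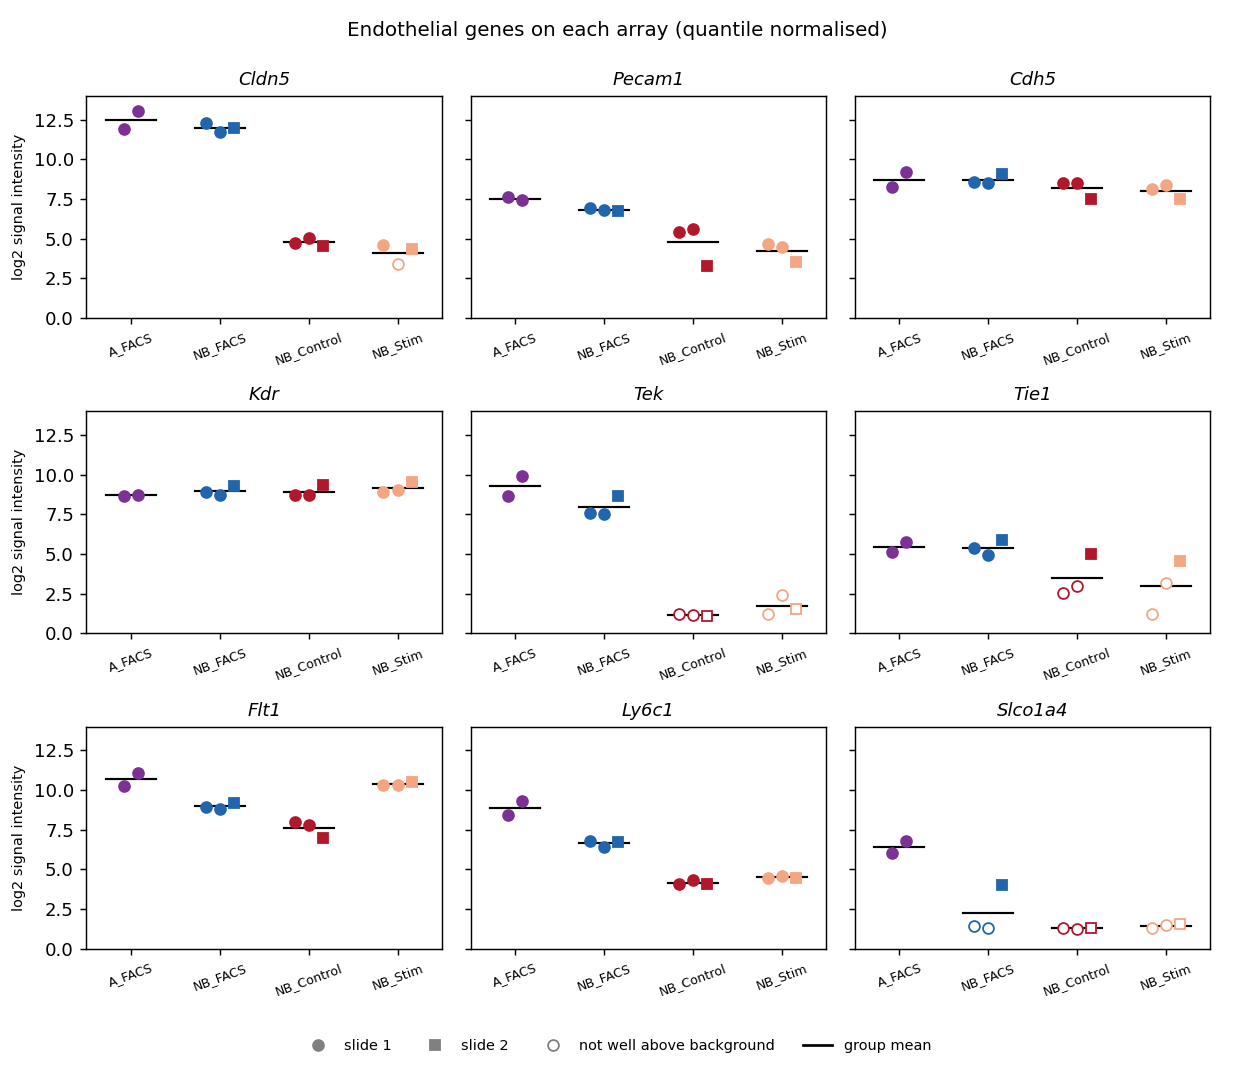
Log2 signal intensity (vertical axis, quantile normalised) of the 9 measured genes on each array of the 4 groups (horizontal axis). Circles are slide 1, squares slide 2, open symbols arrays where no probe of the gene was well above background, and bars group means. Cldn5 drops by over 6 log2 units from the sorted to the cultured groups, Tek drops to signals below background, Kdr and Cdh5 overlap between them, and Flt1 is higher in NB_Stim than in NB_Control.

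Of the receptors for vascular endothelial growth factor, Kdr was called in no comparison, while Flt1 was lower than in NB_FACS in culture without cytokines and higher with them. Kdr, the main signalling receptor of the family in vessels, was 8.69 and 8.73 in A_FACS, 8.91, 8.69 and 9.31 in NB_FACS, 8.75, 8.71 and 9.34 in NB_Control and 8.92, 9.01 and 9.55 in NB_Stim. The groups overlapped in all 4 comparisons, and the slide 2 array was the highest of each newborn group. The difference between NB_Control and NB_FACS was -0.04 (95% interval -0.57 to 0.49, adjusted p = 0.923 in limma), and the differences of the other 3 comparisons, none of them called, lay between -0.26 and 0.23. Kdr rests on 1 probe, and whether this level signal comes from Kdr transcripts was not tested.

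Flt1, which binds the same ligands as Kdr and also exists as a soluble form, was 10.24 and 11.10 in A_FACS and 8.96, 8.81 and 9.16 in NB_FACS. It was 8.01, 7.82 and 6.99 in NB_Control and 10.29, 10.35 and 10.52 in NB_Stim. The newborn groups did not overlap, with NB_Control below NB_FACS and NB_Stim above it. NB_Control was lower than NB_FACS by a log2 difference of -1.37 (SE 0.29, n = 3 each, adjusted p = 0.00509 in limma; -0.97 within slide 1 and -2.17 within slide 2). NB_Stim was higher than NB_Control by 2.78 (SE 0.29, adjusted p = 0.000794; 2.41 and 3.52 within the slides) and higher than NB_FACS by 1.41 (SE 0.29, adjusted p = 0.00424). With Tukey's test, Flt1 kept its call between the cultured groups (adjusted p = 0.0324) and lost those against NB_FACS (0.0694 in NB_Control, 0.06 in NB_Stim and 0.0675 in A_FACS).

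The rise of Flt1 with cytokines was seen by both of its probes, printed above, while the fall in culture was not. Probe 1 differed between NB_Control and NB_FACS by -0.44, and probe 2 by -2.30. With the brighter probe alone, the fall of Flt1 in NB_Control was not called (adjusted p = 0.338, against 0.00342 to 0.338 over its alternatives). Between NB_Stim and NB_Control the 2 probes differed by 2.95 and 2.61, and from NB_FACS NB_Stim differed by 2.51 with probe 1 and by 0.31 with probe 2. The accession of probe 1 is that of a curated RefSeq transcript and the accession of probe 2 that of a predicted one.

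Of the angiopoietin receptors, Tek was below detection in culture, and Tie1 was called lower in NB_Stim but not in NB_Control. Tek was 8.67 and 9.91 in A_FACS and 7.62, 7.51 and 8.68 in NB_FACS. In NB_Control it was 1.22, 1.18 and 1.12, and in NB_Stim 1.22, 2.43 and 1.53, not well above background on any of these 6 arrays. Tek is thus the gene of the list nearest to Cldn5 in its pattern, with a wide gap and no overlap. Set against the lowest signals that were well above background on the cultured arrays, Tek was 22.6-fold lower in NB_Control than in NB_FACS. It was 22.1-fold lower in NB_Stim (adjusted p = 3.77e-06 for NB_Control and 5.97e-06 for NB_Stim in limma, n = 3 each). The measured log2 differences were -6.76 and -6.21, and that of NB_Control was -6.36 within slide 1 and -7.57 within slide 2. These sizes rest on signals below background. With normexp background correction the log2 differences were -2.48 and -2.44. These are smaller falls than the ratios above, so those ratios are not lower limits. Tek kept both calls in all 19 alternatives in which it was tested.

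Tie1, which has no ligand of its own among the classical angiopoietins and pairs with TIE2, had a low signal throughout. It was 5.12 and 5.74 in A_FACS, 5.36, 4.95 and 5.86 in NB_FACS, 2.57, 3.01 and 4.98 in NB_Control and 1.24, 3.15 and 4.56 in NB_Stim. On the cultured arrays it was well above background only on slide 2. The difference between NB_Control and NB_FACS was -1.87 (SE 0.81, adjusted p = 0.118 in limma), and with the replicate number as a block it was called at an adjusted p of 0.0162. NB_Stim was lower than NB_FACS by a difference of -2.41 (SE 0.81, adjusted p = 0.0477), a call that was lost in 13 of 19 alternatives. Within slide 1 these differences were -2.37 and -2.96, and within slide 2 they were -0.89 and -1.31.

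Ly6c1 fell in culture on all arrays, and Slco1a4 was at or near background in every newborn group. Ly6c1 was 8.43 and 9.33 in A_FACS, 6.78, 6.41 and 6.73 in NB_FACS, 4.08, 4.36 and 4.09 in NB_Control and 4.47, 4.56 and 4.45 in NB_Stim. No 2 of the groups A_FACS, NB_FACS and NB_Control overlapped. The log2 difference from NB_FACS was -2.46 in NB_Control (SE 0.22, adjusted p = 3.19e-05 in limma, n = 3 each) and -2.14 in NB_Stim (SE 0.22, adjusted p = 7.5e-05). Of the 3 probes kept, the brightest differed by -4.41 between NB_Control and NB_FACS and the next, printed above, by -2.76, while the third was not well above background on any cultured array, so that the mean over probes understates the change of the bright ones.

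Ly6c2 is the near copy of Ly6c1 that inflammatory monocytes express, and the array measured it with a probe of its own. Ly6c2 was 7.66, 7.21 and 8.46 in NB_FACS and 4.97, 5.10 and 5.86 in NB_Control, a log2 difference of -2.47 (SE 0.40, adjusted p = 0.00116 in limma). In A_FACS it was 10.53 and 11.67. The 2 genes therefore went the same way over the groups, and how much of the Ly6c1 signal may come from Ly6c2 transcripts was not tested.

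Slco1a4 was 6.03 and 6.82 in A_FACS. In NB_FACS it was 1.43, 1.31 and 3.99, of which only the slide 2 array was well above background. On the 6 cultured arrays it lay between 1.27 and 1.54 and was never above background. The gene was thus at background before culture on 2 of 3 arrays. The difference between NB_Control and NB_FACS (-0.95, SE 0.59, adjusted p = 0.274 in limma) was -0.07 within slide 1 and -2.71 within slide 2.

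**Figure D2:**
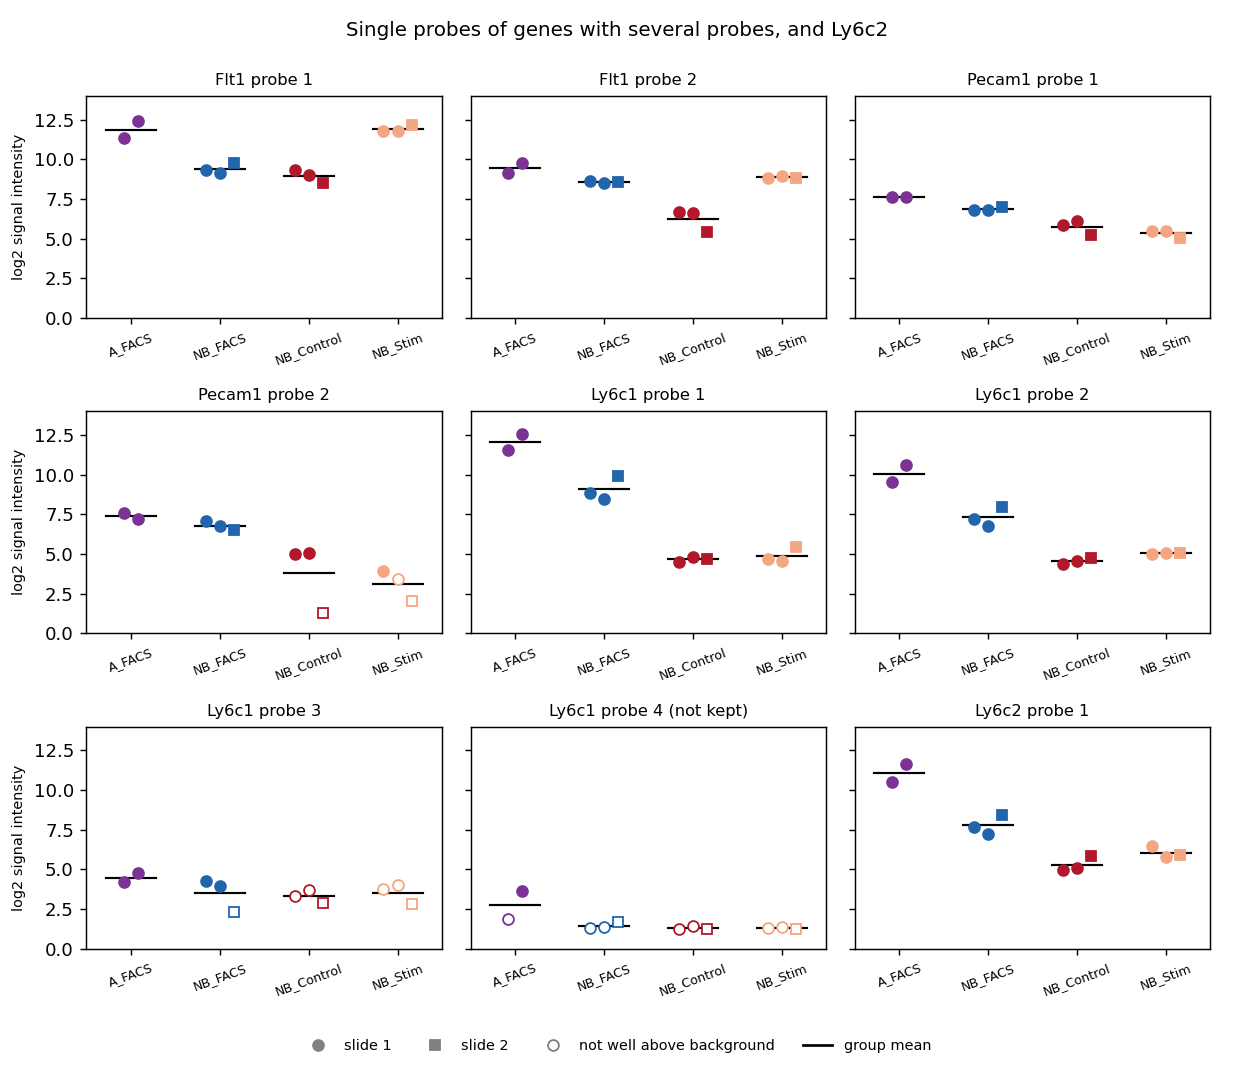
Log2 signal intensity (vertical axis) of each single probe of Flt1, Pecam1, Ly6c1 and Ly6c2 on the arrays of the 4 groups, symbols as in the plot of the genes by array. Both Flt1 probes are higher in NB_Stim than in NB_Control, the 2 Pecam1 probes fall unequally, and the 4 Ly6c1 probes differ in how far they fall.

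Counted over the 8 genes beside Cldn5, 4 were called lower in NB_Control than in NB_FACS (Pecam1, Tek, Flt1 and Ly6c1) and 0 higher (0 also at an unadjusted p under 0.05 in limma), when 13.9% of all genes tested were called lower and 15.8% higher. The median difference of the 8 genes was -1.62, against 0.09 over all genes. In NB_Stim against NB_FACS, 4 were called lower (Pecam1, Tek, Tie1 and Ly6c1) and 1 higher (Flt1), when 15.2% of all genes were lower and 16% higher. The median was -1.47, against 0.11 over all genes. The genes were listed with earlier results known, so these counts and medians describe the list and do not test it. The comparisons share the NB_FACS arrays, and Tek, Ly6c1 and Pecam1 fell in both.

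**Figure D3:**
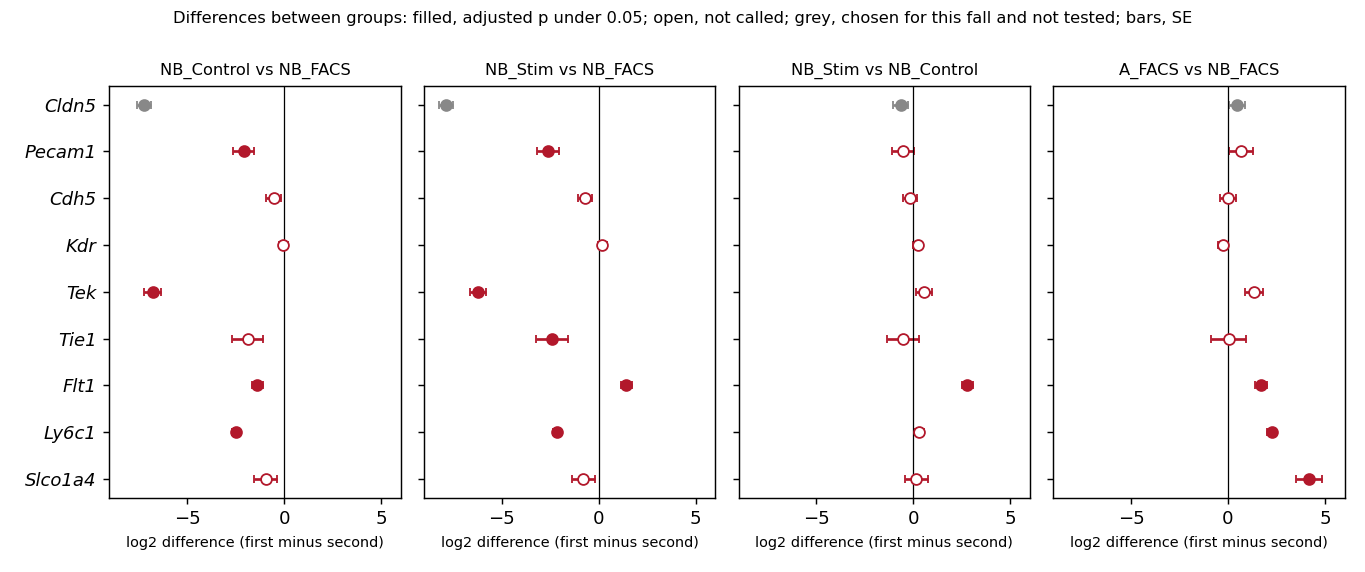
Log2 differences of group means (horizontal axis, first group minus second) for the 9 genes in the 4 comparisons, with bars of 1 SE. Filled red points were called, open points were not, and grey marks Cldn5, which is not tested. The filled point of Slco1a4 in A_FACS against NB_FACS follows from the filter on dim probes. Tek, below background in culture, lies next to Cldn5 near -7 in NB_Control against NB_FACS, whereas Kdr lies near 0 in all 4 comparisons, and Flt1 changes sign between the cultured groups.

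To see whether the fall reached further than these genes, 51 other genes known from brain or general endothelium were listed, of which 44 were tested. In NB_Control 17 of them were called lower than in NB_FACS and 3 higher (13.9% and 15.8% of all genes). The largest falls were those of Ptprb, Foxq1 and Adgrl4. Ptprb, the phosphatase that acts on TIE2 and VE-cadherin, was not above background on any NB_Control array. Set against the lowest signals well above background there, it was 40.7-fold lower (adjusted p = 4.54e-06 in limma), which is not a strict lower limit. Foxq1, a forkhead factor of brain vessels, differed by -5.98 (adjusted p = 9.22e-05). Adgrl4, an adhesion receptor of endothelium, differed by -5.58 (adjusted p = 3.31e-06). Foxq1 was well above background on 1 of 3 NB_Control arrays and Adgrl4 on 2 of 3, which limits what their sizes say. Cd34, a sialomucin of endothelial and blood progenitor cells (-4.26, adjusted p = 0.000624), and Itm2a (-3.92, adjusted p = 0.00133) followed. The 3 that rose were Col4a1, a collagen of basement membranes (1.88, adjusted p = 0.0126), Ctla2a, a cysteine protease inhibitor (1.85, adjusted p = 0.00135), and Cav1, the coat protein of caveolae (1.15, adjusted p = 0.00631). The other 24 genes were not called, among them the endothelial transcription factors Sox17 (0.25, adjusted p = 0.558) and Sox18 (-0.07, adjusted p = 0.791). The median over the 44 genes was -0.29, against 0.09 over all genes.

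In NB_Stim 16 of the 44 genes were called lower than in NB_FACS and 2 higher (15.2% and 16% of all genes). Itm2a fell by 4.75 on the log2 scale (adjusted p = 0.000433 in limma) and was well above background on all NB_Stim arrays. Adgrl4 (-5.18, adjusted p = 5.01e-06) was so on 2 of 3 arrays, and Ptprb (-6.22, adjusted p = 3.74e-06) and Foxq1 (-5.09, adjusted p = 0.000246) on 1 of 3, so that the sizes of these falls rest in part on signals not above background. The 2 that rose were Ctla2a (4.45, adjusted p = 6.69e-06) and Col4a1 (1.46, adjusted p = 0.0393). The median over the 44 genes was -0.33, against 0.11 over all genes.

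**Figure D4:**
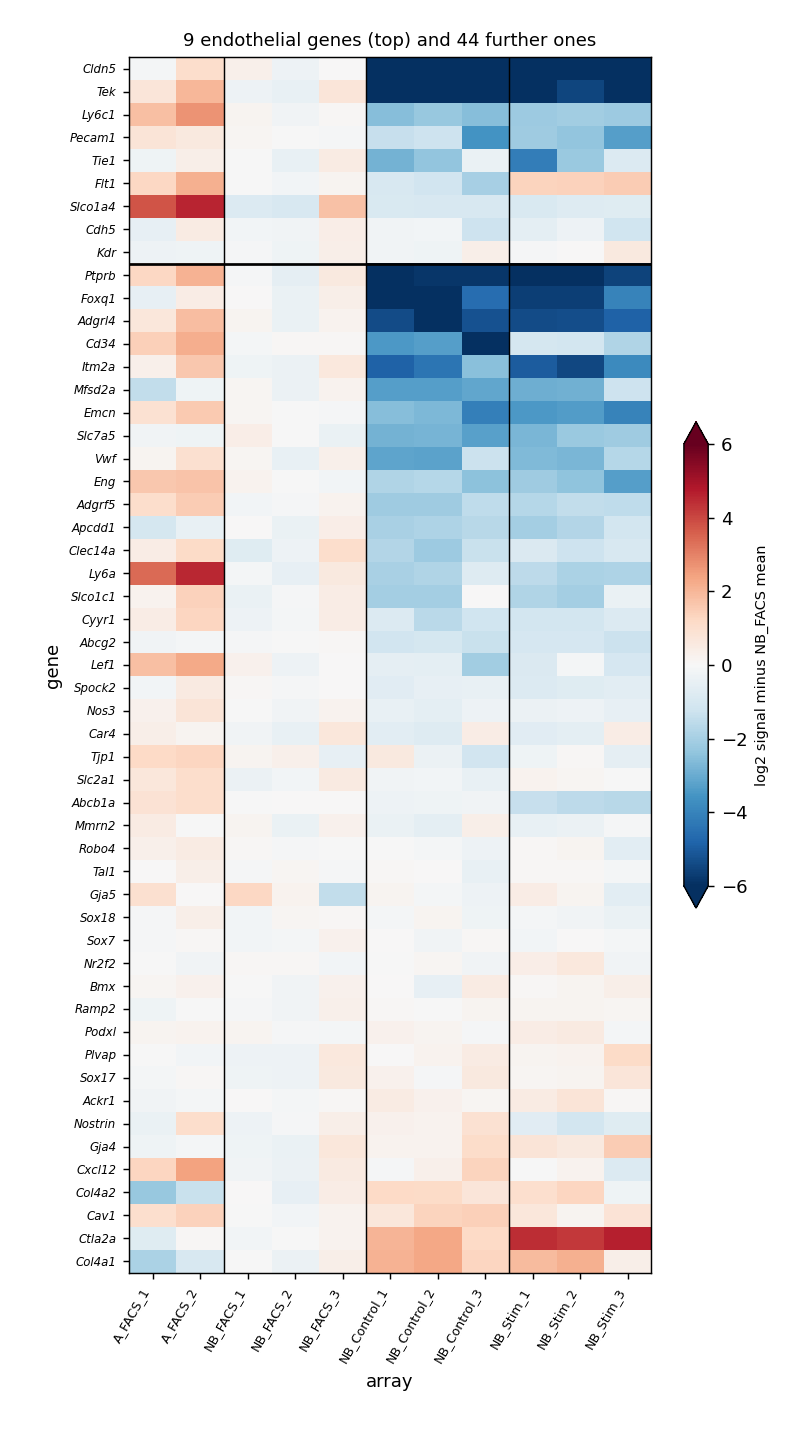
Log2 signal of each gene minus its NB_FACS mean (colour, blue lower and red higher, cut off at 6 units) on the 11 arrays (columns), for the 9 genes followed here above the black line and the 44 further endothelial genes below it, each block ordered by the difference between NB_Control and NB_FACS. A dark blue block in both cultured groups holds Cldn5 and Tek above the line and Ptprb, Foxq1 and Adgrl4 below it. The rows in the lower middle, from Spock2 to Gja4, are mostly pale, though some shift over a whole group, such as Abcb1a, which is lower in NB_Stim.

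With cytokines added, 1 of the 8 genes was called in culture. Flt1 was called higher in NB_Stim than in NB_Control, as given above, and 0 of the 8 were called lower, when 2.02% of all genes were called lower and 1.4% higher. Unadjusted, Flt1 was likewise the only gene of the 8 with a p under 0.05. The median difference of the 8 genes was 0.19, against -0.003 over all genes. Tek was not well above background in either cultured group, so no size can be given. Ly6c1 differed by 0.32 (95% interval -0.18 to 0.81), and in NB_Stim it was still below NB_FACS (-2.14, as given above). Cldn5 was no higher in NB_Stim (4.12 ± 0.65, SD, n = 3) than in NB_Control (4.77 ± 0.27, SD, n = 3). Of the 44 further genes, Cd34 (2.94, adjusted p = 0.0329 in limma) and Ctla2a (2.60, adjusted p = 0.00173) were higher in NB_Stim and Abcb1a, the efflux pump of the blood-brain barrier, was lower (-1.26, adjusted p = 0.000557).

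Ly6c1 and Flt1 were higher in adult than in newborn sorted microglia. In A_FACS against NB_FACS, Ly6c1 differed by 2.24 (SE 0.25, adjusted p = 0.000249 in limma) and Flt1 by 1.69 (SE 0.32, adjusted p = 0.00467), with no overlap of the groups. Slco1a4 is left out of the count here, because it passed the filter on dim probes through A_FACS alone and had to differ. It was well above background on both A_FACS arrays and on 1 of 3 NB_FACS arrays, and is described by the values given above. Of the other 7 genes, 2 were called higher and 0 lower (0 also at an unadjusted p under 0.05), when 12.9% of all genes were called lower and 9.79% higher. Tek was 1.35 higher (SE 0.47, adjusted p = 0.0662) with the arrays overlapping by a narrow margin. Within slide 1, which holds both A_FACS arrays, the differences were 2.29 for Ly6c1, 1.79 for Flt1 and 1.73 for Tek, and in that setting Tek was called (adjusted p = 0.0283). Pecam1 (0.68), Cdh5 (-0.003), Kdr (-0.26), Tie1 (0.04) and Cldn5 (0.47, no test) differed by less, and the 4 tested ones were not called.

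Of the 44 further endothelial genes, 10 were called higher in A_FACS than in NB_FACS and 1 lower (9.79% and 12.9% of all genes). The largest were Ly6a, a surface antigen of brain endothelium and blood progenitors (3.94, adjusted p = 0.000268 in limma), Lef1, a nuclear partner of Wnt signalling (2.05, adjusted p = 0.0108), Cxcl12, a chemokine (1.84, adjusted p = 0.0246), and the TGF-β co-receptor Eng (1.68, adjusted p = 0.00642). The gene that was lower was Col4a2, a basement membrane collagen (-1.80, adjusted p = 0.0202). The count moved between 5, without A_FACS replicate 2, and 14 when single arrays were left out, and it was 7 without NB_FACS replicate 1 or without NB_FACS replicate 2. Over all genes, calls in this comparison were 4439 with all arrays and 3296 without A_FACS replicate 2. They were 3858 without NB_FACS replicate 1 and 3438 without NB_FACS replicate 2.

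Many of the endothelial transcripts also differed in the same direction between arrays of 1 sorted group. A_FACS replicate 2 was higher than replicate 1 in 8 of the 9 measured genes, with a median difference of 0.86 on the log2 scale, and in 38 of the 44 further endothelial genes (86.4%), whereas 51.1% of all genes were higher there. The exception was Pecam1 (-0.17), and Tek (1.25) and Cldn5 (1.15) differed most. NB_FACS replicate 3 was higher than replicate 2 in 8 of 9 genes (median 0.61) and in 34 of 44 further ones (77.3%), against 52.2% of all genes, though it lay on the other slide. Against replicate 1 it was higher in 6 of 9 genes (median 0.39), with Cldn5 (-0.28), Pecam1 (-0.19) and Ly6c1 (-0.05) lower. Of the further genes, 34 of 44 (77.3%) were higher in replicate 3 than in replicate 1, against 56.5% of all genes. In A_FACS replicate 2, 7 of 7 monocyte genes, 8 of 10 erythroid genes and 10 of 13 mural genes were also higher than in replicate 1. So were 6 of 9 fibroblast genes (median 1.41), 5 of 9 platelet genes, 5 of 8 astrocyte genes and 5 of 8 neuronal genes. The part of these other cells in the endothelial values of single arrays was not tested. Of 11 microglial genes, 3 were higher in A_FACS replicate 2 than in replicate 1 and 3 in NB_FACS replicate 3 than in replicate 2. The arrays with the higher endothelial values also had more probes well above background. The share was 78.1% in A_FACS replicate 2 against 70.3% in replicate 1. It was 77.4% in NB_FACS replicate 3, against 67.3% in replicate 1 and 70.0% in replicate 2. The part of this in the endothelial differences was not tested. These are differences between single arrays and carry no test.

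Among the genes whose pattern was most like that of Cldn5 over the 11 arrays were Gimap6, Ptprb, Tek and Cass4. Likeness was measured as the root mean square of the difference in log2 signal after each gene was centred on its own mean, which was 0.72 for Gimap6, a GTPase known from lymphocytes. It was 0.77 for Ptprb, 0.90 for Tek and 0.92 for Cass4, a scaffold protein. Tek was thus 4th among the 19554 other genes. Ly6c1 ranked 112, Pecam1 202, Slco1a4 482 and Tie1 494, while Cdh5 ranked 3008, Flt1 5760 and Kdr 11034. Any gene with a wide gap between sorted and cultured arrays comes near by this measure, so the ranks describe the pattern of Cldn5 and nothing more.

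**Figure D5:**
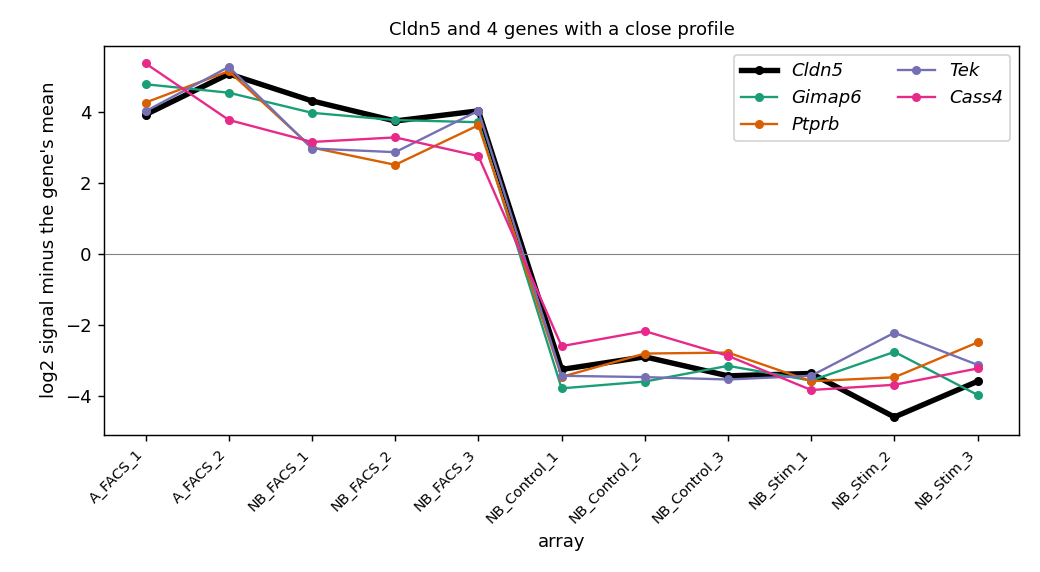
Log2 signal minus each gene's own mean over the 11 arrays (vertical axis) by array (horizontal axis) for Cldn5 (thick black line) and 4 genes close to it by root mean square difference. All 5 lines lie above 2 on the 5 sorted arrays and below -2 on the 6 cultured arrays.

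Several ligands of these receptors were higher in culture. Of 15 listed genes of the VEGF, angiopoietin and related pathways, 12 were tested, and in NB_Control 5 were called higher than in NB_FACS and 1 lower (15.8% and 13.9% of all genes). Vegfa, the ligand of Kdr and Flt1, rose by 3.47 (SE 0.56, adjusted p = 0.00117 in limma), the lymphatic growth factor Vegfc by 2.29 (adjusted p = 0.00486), and Angpt2, a ligand of TIE2, by 1.47 (adjusted p = 0.0181). Angptl4 (1.12, adjusted p = 0.0445) and the co-receptor Nrp2 (0.94, adjusted p = 0.00358) rose less. The gene that fell was Apln, a peptide made by sprouting endothelium (-2.48, adjusted p = 0.000574). The median of the 12 genes was 0.62, against 0.09 over all genes. In NB_Stim 3 of the 12 were called higher than in NB_FACS (Vegfa, Vegfc and Pgf) and 1 lower (Apln), when 16% and 15.2% of all genes were, and between NB_Stim and NB_Control 0 of the 12 were called by limma (3 lower and 1 higher at an unadjusted p under 0.05). In A_FACS 6 were called lower than in NB_FACS and 2 higher (12.9% and 9.79% of all genes), the latter being Vegfc and Flt4, the receptor for Vegfc (2.59, adjusted p = 0.00406).

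Markers of other cells moved between the same groups, in both directions. Their counts are to be read against all genes, of which 15.8% were called higher and 13.9% lower in NB_Control, and a count of 1 or 2 in a list of 8 or 9 is near that share. The summed signal of the 9 measured endothelial genes was 4980 to 6780 in NB_FACS, 1040 to 1150 in NB_Control, 2100 to 2480 in NB_Stim and 6760 to 13500 in A_FACS, and it includes Cldn5, which was selected on its fall. That of the 44 further endothelial genes was 25900 to 36400 in NB_FACS, 22800 to 28400 in NB_Control, 47300 to 48900 in NB_Stim and 38000 to 57100 in A_FACS, so that NB_Control overlapped NB_FACS and NB_Stim lay above both. Such a sum weighs bright genes most, and Ctla2a had a mean of 14.59 in NB_Stim against 10.14 in NB_FACS. The median difference of the 44 genes between NB_Stim and NB_FACS was -0.33, against 0.11 over all genes. Of the sum over 10 tested erythroid genes, NB_FACS held 149000 to 205000, A_FACS 8960 to 25800, NB_Control 636 to 675 and NB_Stim 698 to 748, with 4 of the 10 called lower in NB_Control (Hba-a2 by -12.60, adjusted p = 6.92e-07 in limma). The erythroid sum was thus highest in NB_FACS, by a wide margin. Of 13 mural genes, which mark the pericytes and smooth muscle around vessels, 3 fell in NB_Control (Rgs5 by -6.23, adjusted p = 0.000121; Vtn and Higd1b) and 4 rose (Tagln by 6.66, adjusted p = 9.91e-07; Acta2, Anpep and Cspg4), and Pdgfrb was not called (-0.16). The mural sum was 3710 to 5280 in NB_FACS and 34700 to 52500 in NB_Control.

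Of 9 fibroblast genes, 5 rose in NB_Control (Thy1 most, by 5.94, adjusted p = 0.000539 in limma) and 0 fell, with a sum of 15000 to 19100 in NB_Control against 1350 to 1560 in NB_FACS. Of 9 platelet genes, Pf4 (4.71, adjusted p = 0.000825 in limma) and Ppbp rose in NB_Control and Gp9 fell. Of 7 monocyte genes, 3 rose (Hp most, by 4.34, adjusted p = 0.00982) and Ly6c2 fell. The groups overlapped for Hp, which on slide 2 was 7.01 in NB_Control and 7.11 in NB_FACS. Of 8 astrocyte genes, Aldoc (1.53, adjusted p = 2.33e-05) and Gfap (0.97, adjusted p = 0.0144) rose, and of 8 neuronal genes, Stmn2 (-1.09, adjusted p = 0.016) and Tubb3 (-1.05, adjusted p = 0.00943) fell. In A_FACS against NB_FACS, 12.9% of all genes were called lower and 9.79% higher, and a count of 1 in a list of 7 or 9 is near these shares. Higher there were 4 mural genes (Tagln, Acta2, Myh11 and Des), 1 monocyte gene (Ly6c2) and 1 platelet gene (Gp9). Lower there were 4 erythroid, 5 fibroblast, 4 astrocyte, 2 neuronal, 2 monocyte and 1 platelet gene. Of 11 microglial genes, 8 fell in NB_Control (P2ry12 by -6.44, adjusted p = 9.91e-07), 7 were higher in A_FACS than in NB_FACS, and Csf1r (-0.59) and Itgam (0.06) were not called in NB_Control. The part of these other cells in the endothelial values was not tested.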

How the data were processed

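For each spot the scanner files deposited by the authors hold a processed signal intensity, already corrected for background (Agilent Feature Extraction, version 11 in the submitters' processing notes), and flags for spots well above background and outlier spots. The series matrix deposited with them repeats these intensity values, and 0 of its 62927 entries on any array differed from them by more than a share of 1e-05. The deposited intensity was taken to log2, repeated spots of a probe without outlier flag were averaged, and all probes were quantile normalised in limma 3.58.1 (R 4.3.3, data.table version 1.17.8). Left out were 138 probes whose spots were all outliers on an array, and a probe was kept if all arrays of some group had it well above background (44727 probes). RefSeq accessions in the scanner files paired 36264 of 60037 probes (60.4%) with 23329 symbols through a table of GRCm38.p6, used for names, and the promoters come from RefSeq as well. Probes of a gene were averaged, giving 19555 genes.

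The titles of the samples gave their groups and replicate numbers. A mean for each of the 4 groups was fitted (7 residual degrees of freedom), and 4 comparisons were made with limma (two-sided). The paper's methods define sample numbers as independent biological replicates, without naming arrays. No label says which arrays came from separate animals or cultures, so p-values measure the spread between these samples, which may be technical. The alternatives were another scaling, normexp background correction (offset 50), filter, probe choice, the one-way model with Tukey's adjustment that the methods name, blocks for slide and replicate, fewer groups and single arrays left out. Values within slides and the mean of cultured replicates 1 and 2 were added after seeing the data. Deviations of same-numbered arrays from their group means were correlated over genes in the 3 newborn comparisons (0.312 to 0.446, 0.112 to 0.441 and 0.27 to 0.49). For replicate 2, another number correlated more in NB_Stim against NB_FACS (0.348, against 0.112) and in NB_Stim against NB_Control (0.339, against 0.27). Replicate 3 of each newborn group was also the slide 2 array, so number and slide cannot be told apart there. For A_FACS and NB_FACS the correlations of same-numbered arrays were 0.168 and -0.0694. The main fit held no pairing, which entered only through the alternative with a replicate block. The fits were tested on simulated data.

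The genes and the lists (other endothelial, VEGF and angiopoietin, microglia, mural, platelet, erythroid, monocyte, fibroblast, astrocyte and neuron) were chosen with earlier results of these data known. Named are the 10 genes, Ly6c2, genes of the VEGF and angiopoietin list, of the other endothelial list the 5 called genes with the largest difference and those called against the majority, those closest to Cldn5, and of each marker list the first 2 genes and the largest called difference each way. Esam, Ocln, Slc38a5, Egfl7, Efnb2 and Rasip1 had no matched probe and Erg and Icam2 were removed by the filter. Some results of single genes are not reported here, and the monocyte list and the genes closest to Cldn5 are given without them. Some other genes named (Vtn, Higd1b, Acta2, Anpep, Cspg4, Sox17, Sox18, Csf1r, Gpr34, Itgam, Tubb3, Myh11, Des) were chosen after their values were seen. Figures were drawn with matplotlib 3.10.9.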

Additional observations from a re-analysis of the deposited data

How the results depend on the processing

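Of the 8 genes tested, the counts called in the 4 comparisons (4, 5, 1 and 3, the last with Slco1a4) changed by over 1.5 times only with Tukey's test (2 in NB_Control and 2 in NB_Stim against NB_FACS), with probes above background on all arrays (3 in NB_Stim against NB_FACS, 5 genes tested) and with normexp background (5 in A_FACS against NB_FACS, with Pecam1 and Tek added). Leaving out single arrays gave 3 to 5, 4 to 5, 1 to 1 and 3 to 4. For the 44 further endothelial genes the counts were 20, 18, 3 and 11. Tukey's test gave 13 in NB_Control against NB_FACS, 1 in NB_Stim against NB_Control and 3 in A_FACS against NB_FACS, slide as a block gave 5 and 19 in the last 2, and the stricter filter gave 7 of 36 in A_FACS against NB_FACS. Single arrays left out gave 17 to 21, 16 to 23, 2 to 4 and 5 to 14. Calls over all genes moved with the setting too. They were 5814, 6083, 669 and 4439 in the main fit and 3536, 3615, 187 and 2023 with Tukey's test. Slide as a block gave 1475 and 6407 in the last 2, and the stricter filter gave 4083 in A_FACS against NB_FACS. With the replicate block the 8 genes gave 5, 5, 1 and 4 and the 44 genes 23, 22, 4 and 16, when all genes gave 7328, 7837, 1196 and 6068. This pairing added Tie1 in NB_Control against NB_FACS and Tek in A_FACS against NB_FACS (1.43, adjusted p = 0.0436), where the numbers do not pair the samples, and changed no other call of the 8 genes.

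Differences that turned sign were uncalled throughout. Without single arrays, Cdh5 ranged from -0.49 to 0.097 in NB_Stim against NB_Control and from -0.48 to 0.47 in A_FACS against NB_FACS (0.0057 with normexp), Kdr from -0.24 to 0.13 in NB_Control against NB_FACS and from -0.0064 to 0.36 in NB_Stim against NB_FACS, Tie1 from -1.33 to 0.33 in NB_Stim against NB_Control and from -0.27 to 0.35 in A_FACS against NB_FACS, and Slco1a4 from -1.27 to 0.077 in NB_Stim against NB_FACS. With cultured replicates 1 and 2 averaged, a setting chosen after seeing the data, Kdr was 0.061 in NB_Control against NB_FACS, Tie1 lost its call in NB_Stim against NB_FACS (adjusted p = 0.12), and the 8 genes gave 4, 4, 1 and 3 calls. Pecam1 in NB_Stim, and Flt1 in each comparison with NB_FACS, lost their calls with Tukey's test (adjusted p = 0.0797 for Pecam1 and 0.06 to 0.0694 for Flt1). The cause of these changes was not tested. A signal not above background gives no exact size.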
